A study of Homo sapiens with 12 samples.

Results

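The nuclear genome encodes most subunits of the 5 complexes of the mitochondrial respiratory chain, counting the ATP synthase as complex V. These genes were taken by symbol: the NDUFA, NDUFB, NDUFC, NDUFS and NDUFV families with NDUFAB1, SDHA to SDHD, the UQCR genes with CYC1, the COX4 to COX8 families, and every symbol that begins with ATP5. The rule used no measured value. It found 89 of the 20030 genes in the table, 37 in complex I, 4 in complex II, 9 in complex III, 18 in complex IV and 21 in complex V. NDUFA4 was counted in complex IV, where it is now placed. Of the 89, 81 reached 1 FPKM (fragments or reads scaled for gene length and library total) in at least 3 of the 12 libraries and were tested, as were 10823 genes in all.

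RNA was sequenced from HepG2, an established human hepatoma line, after 6 h of treatment, labelled at 10 µM. The 4 groups had the solvent DMSO, 8HQ, FAC, or both agents at once; the last is called 8HQ_FAC below. In iron biology the abbreviations usually stand for hydroxyquinoline, a lipid-soluble metal binder, and ferric ammonium citrate, an iron salt, but the labels do not spell them out. Each group had 3 libraries of 1 cell line, and nothing states that they came from separate cultures, so p-values measure only the spread between these libraries, which may be technical. The study's title names intracellular labile iron and hepcidin, and the question taken up here is how the respiratory subunits behaved, by complex and by iron cofactor.

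The respiratory chain passes electrons from NADH through complex I, or from succinate through complex II, to ubiquinone, complex III, cytochrome c and complex IV, which reduces oxygen. The proton gradient so built drives the ATP synthase. Electrons travel on iron-sulfur clusters and hemes, so a few nuclear-encoded subunits carry iron while most are structural or assembly-related, and a further set of subunits is encoded in mitochondrial DNA and was not analysed here. In liver cells the chain supports gluconeogenesis, urea synthesis and fatty acid oxidation.

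Under DMSO the tested members covered a wide range of levels per length. The highest in each complex were NDUFS5 with a mean of 182 FPKM in complex I, SDHB with 47.9 in complex II, UQCRC2 with 147 in complex III, COX7C with 221 in complex IV and ATP5F1E with 383 in complex V. The lowest were ATP5S, a coupling factor of the ATP synthase, with 1.59 FPKM and NDUFA5 with 4.62 FPKM. Below the filter, COX4I2, the isoform of COX4 used under low oxygen, COX7B2 and the readthrough ATP5MF-PTCD1 were listed at 0 in all 12 libraries. The muscle and heart isoforms COX6A2 and COX7A1, the testis-type COX6B2 and COX8C, and ATP5MGL had group means of at most 0.156 FPKM. The liver-type or general partners COX4I1 (190 FPKM), COX6A1 (186 FPKM), COX6B1 (180 FPKM), COX7A2 (43.4 FPKM) and COX8A (176 FPKM) were all well above the filter. The tested members had a median coding length of 459 nucleotides, against 1398 for all tested genes, and a median DMSO level of 54.5 FPKM, against 9.55.

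Promoters of respiratory genes are known for sites of NRF1, of ETS-family factors such as GABPA, and of YY1. RefSeq promoters of the build GRCh38.p14, from 250 bases before to 50 after the start, were matched for 71 members, 67 of them tested. Letters were searched on both strands. The NRF1 letters (GCGC, any base, then TGCGC) were in 23.9% of the tested members' promoters and in 12.5% of those of all tested genes. The ETS letters CCGGAAG were in 29.9% and 21.0%, the YY1 letters AAGATGGCG in 11.9% and 4.4%, and the hypoxia element core ACGTG in 25.4% and 27.4%. Where motifs overlapped, each was counted. These are matches of letters, not sites shown to be bound. The 4 promoters below belong to the member that rose most with FAC (NDUFB4) and to a complex IV subunit with one of the largest interactions (COX5B). The others belong to a pair of complex II subunits that moved in opposite directions on the deposited scale (SDHB and SDHA). Capitals mark the NRF1, ETS and YY1 matches on either strand. They stand at chr3:120596086-120596385 (plus strand), chr2:97645812-97646111 (plus), chr1:17053983-17054282 (minus) and chr5:218070-218369 (plus), in that order.
NDUFB4: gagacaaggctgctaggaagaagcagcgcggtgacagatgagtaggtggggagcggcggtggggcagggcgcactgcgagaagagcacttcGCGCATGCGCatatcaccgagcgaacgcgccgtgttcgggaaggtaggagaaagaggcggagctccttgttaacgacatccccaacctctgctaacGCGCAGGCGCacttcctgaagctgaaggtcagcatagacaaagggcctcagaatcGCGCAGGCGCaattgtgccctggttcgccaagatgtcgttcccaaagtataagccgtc
COX5B: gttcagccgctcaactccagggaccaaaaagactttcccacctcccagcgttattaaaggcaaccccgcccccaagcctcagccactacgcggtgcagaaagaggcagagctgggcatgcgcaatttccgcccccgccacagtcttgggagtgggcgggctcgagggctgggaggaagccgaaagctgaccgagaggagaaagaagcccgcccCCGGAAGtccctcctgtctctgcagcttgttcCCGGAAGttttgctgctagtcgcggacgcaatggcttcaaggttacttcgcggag
SDHB: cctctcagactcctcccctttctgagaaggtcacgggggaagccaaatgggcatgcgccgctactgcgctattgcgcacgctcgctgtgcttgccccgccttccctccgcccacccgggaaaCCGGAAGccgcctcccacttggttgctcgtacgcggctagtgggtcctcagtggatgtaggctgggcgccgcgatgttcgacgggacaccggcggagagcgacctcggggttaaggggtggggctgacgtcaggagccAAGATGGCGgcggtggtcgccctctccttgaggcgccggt
SDHA: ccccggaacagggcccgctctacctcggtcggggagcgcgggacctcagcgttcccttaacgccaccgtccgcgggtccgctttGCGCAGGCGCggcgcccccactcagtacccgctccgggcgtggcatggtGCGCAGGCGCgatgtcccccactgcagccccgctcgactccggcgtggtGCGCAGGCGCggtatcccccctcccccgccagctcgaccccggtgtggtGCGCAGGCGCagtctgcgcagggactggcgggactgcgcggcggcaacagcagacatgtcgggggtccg
The NDUFB4 promoter held 3 NRF1 matches, COX5B 2 ETS matches, SDHB 1 ETS and 1 YY1 match, and SDHA 4 NRF1 matches. With 8HQ_FAC the median log2 change was 0.65 over the 33 tested members with an NRF1 or ETS match and 0.59 over the 34 with neither, and with FAC it was 0.11 and 0.12.

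The libraries differed in ways that touch the results. Summed FPKM was 335508 to 341403 in the DMSO and 8HQ libraries, 345203 to 346915 with FAC and 419275 to 427192 with 8HQ_FAC. Relative depth, read from the steps between low values, was 0.918 to 1 in the first 3 groups and 0.773 to 0.843 with 8HQ_FAC, so the latter libraries were the shallowest. All 10 hepatocyte markers were above 0 in every library, with a summed level of 18527 to 20561 FPKM in the first 3 groups and 28245 to 28896 FPKM with 8HQ_FAC, where 9 of 10 were called higher and APOB lower. Of the red cell markers, HBB ranged from 0.421 to 35.2 FPKM in the 6 libraries without FAC and was listed at 0 in the 6 with it. The summed red cell level was 0.77 to 41.3 FPKM without FAC and 0.0949 to 3.31 FPKM with it. Of 11 leukocyte markers, 11 were above 0 in each library without FAC and 3 to 6 in each library with it; nearly all of their summed level (1056 to 1990 FPKM) was LYZ. The 5 muscle markers summed to 19.5 to 23 FPKM without FAC and 5.44 to 7.11 FPKM with it, mostly ACTA1. Endothelial and stromal markers summed to 34 to 35.2 FPKM without FAC and 45.6 to 52.8 FPKM with it. The part of these differences in the results for the respiratory subunits was not tested. All libraries are labelled as 1 cell line. Like HBB, the markers HLA-DRA, CD163, CD3E, TYROBP and S100A8 were above 0 in all 6 libraries without FAC and listed at 0 in the 6 with it. In comparisons across this split, FAC and any other difference between these sets of libraries cannot be told apart. Without the 3 libraries with most HBB, an alternative chosen after seeing the data, 38 members were called higher with FAC against DMSO and 76 with 8HQ_FAC, where all 12 libraries gave 36 and 76. The share of all tested genes called without those 3 libraries is not given here.

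With 8HQ alone the respiratory subunits stayed close to DMSO. By limma, no member was called higher and 1 was called lower, where 2.49% of all tested genes were called higher and 2.41% lower (4.91% either way). At an unadjusted p under 0.05, 2 members were higher and 8 lower, but all tested genes were not counted at that threshold. Groups did not overlap, with 8HQ higher, in 4 members and, with 8HQ lower, in 9. Of all tested genes 14.6% and 11.5% were apart in this way. The median change of the 81 members was −0.01 on the log2 scale (all tested genes 0.01), and single members lay between −0.15 and 0.13. The 1 called member was ATP5MD, a small membrane subunit of the ATP synthase. It read 50.7, 50.7 and 49.6 FPKM in the DMSO libraries and 46.6, 42.4 and 46.5 FPKM with 8HQ. The groups did not overlap, with a log2 change of −0.15 (SE 0.040, limma adjusted p = 0.0396). The call did not hold without any 1 of the 6 DMSO and 8HQ libraries, nor in several other alternatives. The iron-sulfur and heme subunits had a median of 0.00, against −0.01 for the others.

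With FAC alone some members of each complex were higher by small amounts. By limma, 36 of 81 members were called higher and 4 lower, where 24.8% of all tested genes were higher and 29.2% lower (54% either way). The counts moved with the scaling: with the trend over coding length removed 21 were higher and 7 lower (27.1% and 27.1% of all tested genes), and with that over transcript length 30 and 14 (27.4% and 27.3%). Under all 6 scalings compared below, 23.5% of members and 19.5% of all tested genes were higher, shares near each other. Without DMSO replicate 3 the count of lower members was 2. Groups did not overlap, with FAC higher, in 42 members and in 28.4% of all tested genes. The median change was 0.12 for the members and −0.01 for all tested genes. Complex III moved most evenly, with 8 of 9 subunits higher and a median of 0.15 (UQCRB, at 0.08, was not called). Of complex I 14 of 37 were higher and 2 lower, of complex II 2 and 2 of 4, of complex IV 5 of 12 higher, and of complex V 7 of 19 higher. Each comparison with DMSO uses the same 3 DMSO libraries, so their values are given side by side only.

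The 4 members that rose most with FAC are all accessory subunits in the membrane arm of complex I. NDUFB4 read 28.3, 26.2 and 27.3 FPKM under DMSO and 38.3, 38 and 37.8 FPKM with FAC. NDUFB3 read 18.6, 17.6 and 17.8 FPKM under DMSO and 25, 25.1 and 23.7 FPKM with FAC. In both the lowest FAC library was above the highest DMSO library. Their log2 changes were 0.47 (SE 0.043, limma adjusted p = 4.52e-07) and 0.43 (SE 0.042, limma adjusted p = 9.22e-07). NDUFB1 went from 37, 30.4 and 40 FPKM to 49.6, 47.5 and 45.9 FPKM, and NDUFC1 from 23, 21.7 and 21 FPKM to 29.2, 30.6 and 27.7 FPKM. Neither pair of groups overlapped, and the log2 changes were 0.41 and 0.40 (limma adjusted p = 0.000426 and 2.72e-05). The other 10 accessory subunits of complex I called higher rose by 0.13 to 0.35, among them NDUFA8 (log2 change 0.35), NDUFV3 (0.33) and NDUFB10 (0.32). Outside complex I, UQCR11 of complex III and ATP5ME of the ATP synthase rose by 0.35 each.

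The 7 nuclear-encoded core subunits of complex I, which hold the redox centres and the ubiquinone site, had lower values. None was called higher, 1 was called lower and their median change was −0.05, against 0.13 for the 30 accessory subunits, of which 14 were called higher and 1 lower, beside 24.8% higher and 29.2% lower over all tested genes. The called one was NDUFV1, which binds NADH and FMN and carries a cluster. It read 65.7, 69.4 and 69.6 FPKM under DMSO and 62.1, 62.7 and 62.4 FPKM with FAC. All 3 FAC libraries lay below all 3 DMSO libraries (log2 change −0.13, SE 0.040, limma adjusted p = 0.0144). The call did not hold with the coding length trend removed (−0.10, limma adjusted p = 0.0694) or under median centring (−0.08, limma adjusted p = 0.155). NDUFA6, an accessory subunit, was called lower with groups that overlapped, at 45.3, 43.1 and 40.8 FPKM under DMSO and 39.5, 37.9 and 41.1 FPKM with FAC (log2 change −0.12, limma adjusted p = 0.0326). The difference between core and accessory subunits has no test of its own, and the core subunits are longer, with a median coding length of 792 against 442 nucleotides.

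Complex II, succinate dehydrogenase, split. SDHA, the flavoprotein that oxidizes succinate, read 35.2, 35.8 and 37.6 FPKM under DMSO and 33.5, 33.9 and 33.1 FPKM with FAC. SDHD, a membrane anchor of the heme, read 44.2, 41.7 and 43.1 FPKM and then 36.1, 36.8 and 38.6 FPKM. Both fell without overlap, with log2 changes of −0.11 (limma adjusted p = 0.0156) and −0.21 (limma adjusted p = 9.71e-05). SDHB, the iron-sulfur subunit, went the other way, from 49.6, 46.8 and 47.1 FPKM to 54.1, 55.1 and 54 FPKM. SDHC, the other heme anchor, went from 34.2, 32.2 and 36.6 FPKM to 38.8, 38.9 and 40.7 FPKM. These rises were 0.18 (limma adjusted p = 0.000624) and 0.20 (limma adjusted p = 0.0031), again without overlap. SDHD kept a call of lower under each of the 6 scalings described below, between −0.26 and −0.16, and SDHB and SDHC kept a call of higher.

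**Figure D1:**
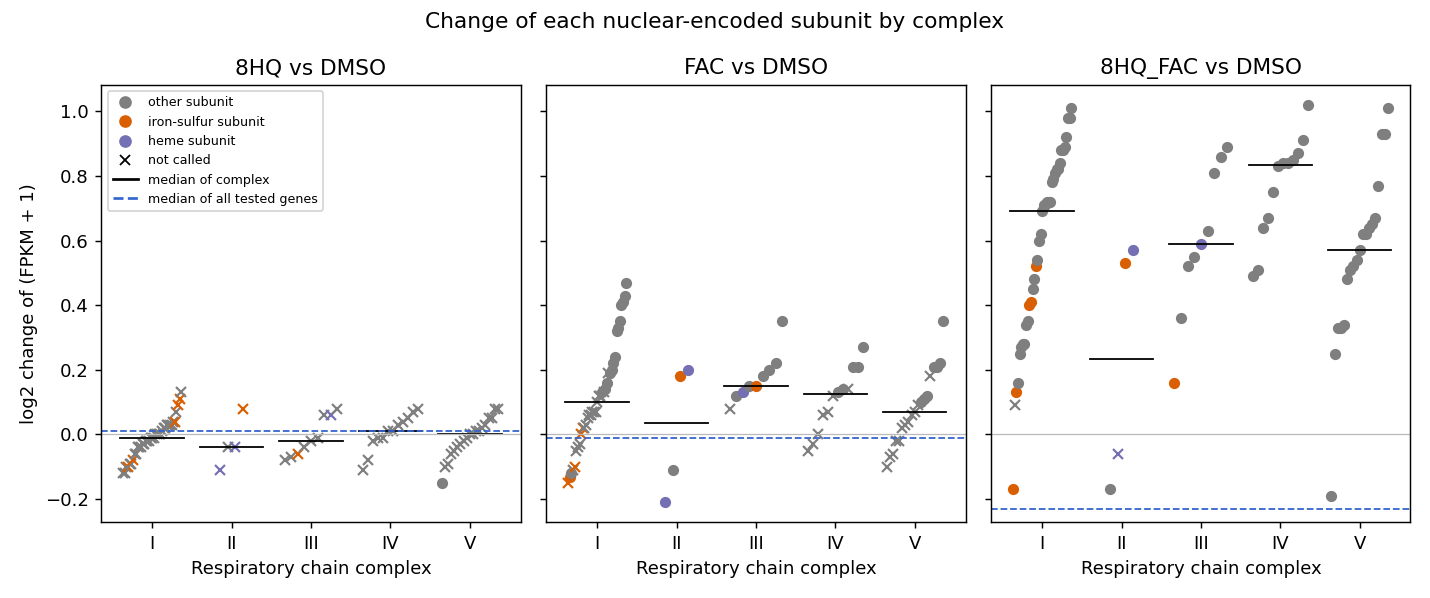
Each point is 1 of the 81 tested subunits, at its log2 change of FPKM plus 1 (vertical axis) by complex (horizontal axis), in 3 panels against DMSO; crosses were not called, black bars are medians of a complex and the dashed line is the median of all tested genes. With 8HQ the points lie between −0.15 and 0.13, with FAC between −0.21 and 0.47, and with 8HQ_FAC between −0.19 and 1.02, where the median of all genes is −0.23.

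With 8HQ and FAC together nearly the whole chain was higher. By limma, 76 of 81 members were called higher than under DMSO and 3 lower, where 27.5% of all tested genes were higher and 56.7% lower (84.3% either way). The median log2 change of the members was 0.62 (by 8HQ_FAC library 0.67, 0.60 and 0.59) and that of all tested genes −0.23. The members summed to 1.99% ± 0.0342 (SD, n = 3) of all FPKM under DMSO, 1.97% ± 0.034 with 8HQ, 2.09% ± 0.011 with FAC and 2.5% ± 0.0505 with 8HQ_FAC. Complex IV had the highest median of the 5, at 0.83, with 12 of 12 tested subunits higher. Complex I had 0.69 with 35 of 37 higher, complex III 0.59 with 9 of 9, complex V 0.57 with 18 of 19, and complex II 0.24 with 2 of 4. The share of all FPKM held by complex II was 0.0478% ± 0.0011 under DMSO and 0.046% ± 0.000484 with 8HQ_FAC, while that of complex IV was 0.477% ± 0.00911 and 0.649% ± 0.0215 (SD, n = 3).

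**Figure D2:**
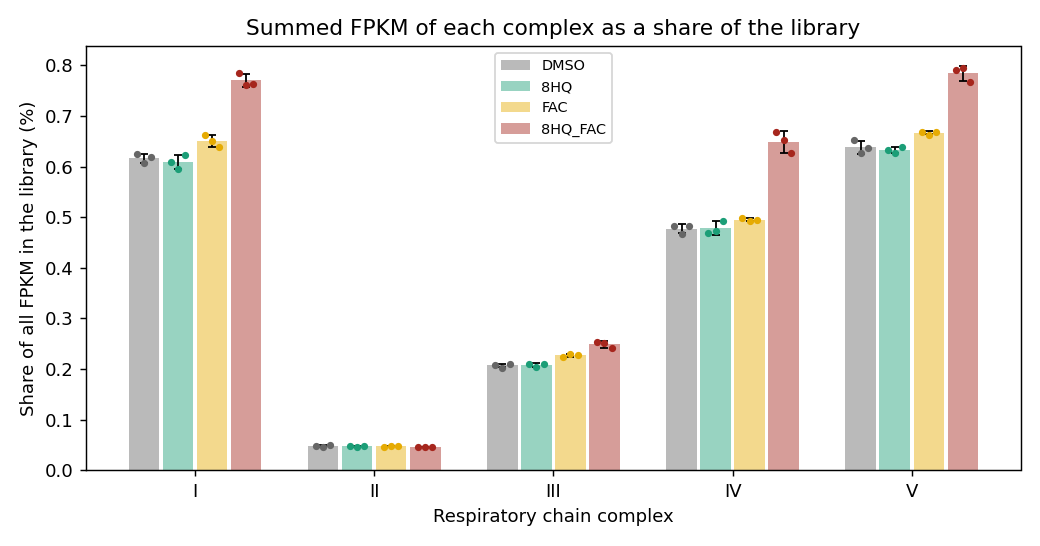
Bars give the mean summed FPKM of each complex as a percentage of all FPKM in the library (vertical axis) in each group, points are the 3 libraries and error bars are 1 SD. With 8HQ_FAC the bar of complex IV is 0.649% against 0.477% under DMSO, and the bar of complex II is 0.046% against 0.0478%.

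In complex I the members that rose most were again small membrane-arm subunits. NDUFB4 reached 55.2, 52.7 and 60.3 FPKM with 8HQ_FAC, against a mean of 27.3 ± 1.04 FPKM (SD, n = 3) under DMSO (log2 change 1.01, SE 0.043, limma adjusted p = 6.31e-12). NDUFB3 reached 36.5, 36.6 and 36.1 FPKM against 18 ± 0.526 FPKM (log2 change 0.98, SE 0.042, limma adjusted p = 7.37e-12). No 8HQ_FAC library of either gene overlapped a DMSO library. NDUFS5, the most abundant complex I member, went from 192, 174 and 180 FPKM to 308, 285 and 291 FPKM (log2 change 0.69, limma adjusted p = 2.76e-10; −0.06 and not called with the transcript length trend removed). NDUFA5, the lowest under DMSO, went from 4.69, 4.36 and 4.82 FPKM to 6.57, 6.9 and 6.64 FPKM (log2 change 0.45, limma adjusted p = 5.66e-06). With the coding length trend removed NDUFA5 was not called (0.09, limma adjusted p = 0.178). At both ends of the range of levels the groups were apart on the deposited scale.

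In complex IV all 12 tested subunits lay between 0.49 and 1.02. COX6C went from 48.3, 42.2 and 44.4 FPKM to 96.5, 92.1 and 87 FPKM, the largest change of any member on the deposited scale (log2 change 1.02, SE 0.052, limma adjusted p = 5.44e-11). COX7C, the most abundant of the complex, went from 225, 219 and 219 FPKM to 427, 421 and 399 FPKM (log2 change 0.91, limma adjusted p = 3.06e-11). COX4I1, a subunit with a regulatory role, went from 192, 187 and 190 FPKM to 337, 321 and 300 FPKM (log2 change 0.75, limma adjusted p = 1.12e-10). In all of these the 8HQ_FAC libraries stood clear of the DMSO libraries. COX6A1 (log2 change 0.84), COX7A2 (0.83), COX8A (0.85), NDUFA4 (0.87), COX7A2L, a factor for supercomplexes (0.64), and COX6B1, which faces cytochrome c (0.51), were called higher as well. COX8A was not called with the transcript length trend removed (0.06, limma adjusted p = 0.0986). COX6B1 was called lower with the transcript length trend removed (−0.11, limma adjusted p = 0.0221) and was not called with that over coding length removed (0.03, limma adjusted p = 0.558). Their partner isoforms stayed near 0: COX4I2 and COX7B2 were listed at 0 in every library, COX6A2 was above 0 in 1 DMSO library (0.125 FPKM), and the highest single values of COX6B2, COX7A1 and COX8C were 0.113, 0.172 and 0.129 FPKM, each with 8HQ_FAC.

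In the ATP synthase, 18 of 19 tested members were called higher. The 5 subunits of the catalytic F1 head had a median of 0.34, the 3 genes of the c ring 0.52, the 4 of the peripheral stalk 0.65 and the 5 small membrane subunits 0.77. These differences were not tested, and F1 alone ranged from 0.25 to 1.01. With the coding length trend removed the order turned, with medians of 0.41 for F1, 0.23 for the c ring, 0.38 for the stalk and 0.29 for the membrane subunits. With the transcript length trend removed, the membrane subunits ATP5MG (0.49) and ATP5MPL (0.12) were called higher and ATP5MF lower (−0.50). ATP5MD (0.07) and ATP5ME (−0.07) were then not called. Within F1, the large catalytic subunit ATP5F1B went from 371, 367 and 372 FPKM to 473, 463 and 463 FPKM (log2 change 0.33, limma adjusted p = 9.65e-10). ATP5F1E, the small epsilon subunit of the same head, went from 392, 370 and 388 FPKM to 792, 792 and 741 FPKM (log2 change 1.01, limma adjusted p = 4.66e-13). The groups did not overlap in either, and on the deposited scale the smaller subunit had the larger change. That order was reversed with the coding length trend removed, at 0.66 for ATP5F1B and 0.32 for ATP5F1E. With the transcript length trend removed it held, at 0.34 and 1.24. ATP5IF1, the inhibitor that stops the enzyme from running backwards, went from 35.9, 35.5 and 33.9 FPKM to 50.9, 50.6 and 49.5 FPKM (log2 change 0.51, limma adjusted p = 2.96e-10). With the transcript length trend removed ATP5IF1 was called lower (−0.31, limma adjusted p = 3.53e-07). ATP5S was the one member of the complex called lower, at 1.52, 1.47 and 1.77 FPKM under DMSO and 1.19, 1.26 and 1.37 FPKM with 8HQ_FAC (log2 change −0.19, limma adjusted p = 0.0137), just above the filter. ATP5S was at 0.55 with the transcript length trend removed and at 0.23 under median centring, both called higher.

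In complex III, UQCRH, the hinge protein at the cytochrome c docking face, went from 154, 135 and 142 FPKM to 279, 276 and 249 FPKM (log2 change 0.89, limma adjusted p = 2.77e-10). The core proteins UQCRC1 and UQCRC2 rose less, by 0.52 and 0.36. UQCRC2 read 149, 147 and 146 FPKM under DMSO and 193, 191 and 185 FPKM with 8HQ_FAC. These groups too were apart.

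The iron-carrying subunits were examined one by one. In complex I, NDUFS1, which holds several clusters, was lower with 8HQ_FAC, at 45.5, 43 and 41.8 FPKM against 49.5, 47.4 and 50.3 FPKM under DMSO (log2 change −0.17, SE 0.035, limma adjusted p = 0.000281). NDUFS7, which passes electrons to ubiquinone, was higher, at 15.1, 14 and 12.9 FPKM against 10.6, 9.28 and 11.5 FPKM (log2 change 0.40, SE 0.066, limma adjusted p = 4.28e-05). NDUFS8 was higher at 99.2, 94.5 and 89.4 FPKM against 59.8, 68.5 and 68.6 FPKM (log2 change 0.52, limma adjusted p = 6.78e-06). In these 3 subunits no library of one group overlapped the other group. With the transcript length trend removed, NDUFS7 (0.06, limma adjusted p = 0.409) and NDUFS8 (0.01, limma adjusted p = 0.927) were not called. NDUFS1 was then called higher (0.59). NDUFV1 was higher at 95.6, 90.3 and 86.3 FPKM (log2 change 0.41, limma adjusted p = 1.23e-07), the opposite of its change with FAC alone. NDUFV2 read 96.5, 91.5 and 95.4 FPKM against 91.8, 82.7 and 83.6 FPKM, groups that overlapped (log2 change 0.13, limma adjusted p = 0.0108).

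In complex II, SDHB reached 73.6, 69.2 and 66.5 FPKM (log2 change 0.53, limma adjusted p = 1.43e-09) and SDHC 51, 52.1 and 51.4 FPKM (log2 change 0.57, limma adjusted p = 2.12e-08). SDHA fell to 33.2, 31.4 and 31.6 FPKM (log2 change −0.17, limma adjusted p = 0.000307). SDHD read 40.6, 41.9 and 41.3 FPKM, overlapping DMSO, and was not called (log2 change −0.06, limma adjusted p = 0.114). The 4 subunits of this small complex thus did not move together in either FAC group. In complex III, UQCRFS1, the Rieske protein, read 57.1, 53.8 and 56.9 FPKM under DMSO, 58.8, 62.1 and 65.3 FPKM with FAC, and 65.1, 61.1 and 61.3 FPKM with 8HQ_FAC. Both FAC groups lay above DMSO (log2 changes 0.15 and 0.16, limma adjusted p = 0.0107 and 0.00359). CYC1, cytochrome c1, went from 40.9, 42.2 and 43.3 FPKM to 48.1, 44.9 and 45.2 FPKM with FAC and 64.9, 63.1 and 64.2 FPKM with 8HQ_FAC, a change of 0.59 for the latter (limma adjusted p = 6.03e-10).

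**Figure D3:**
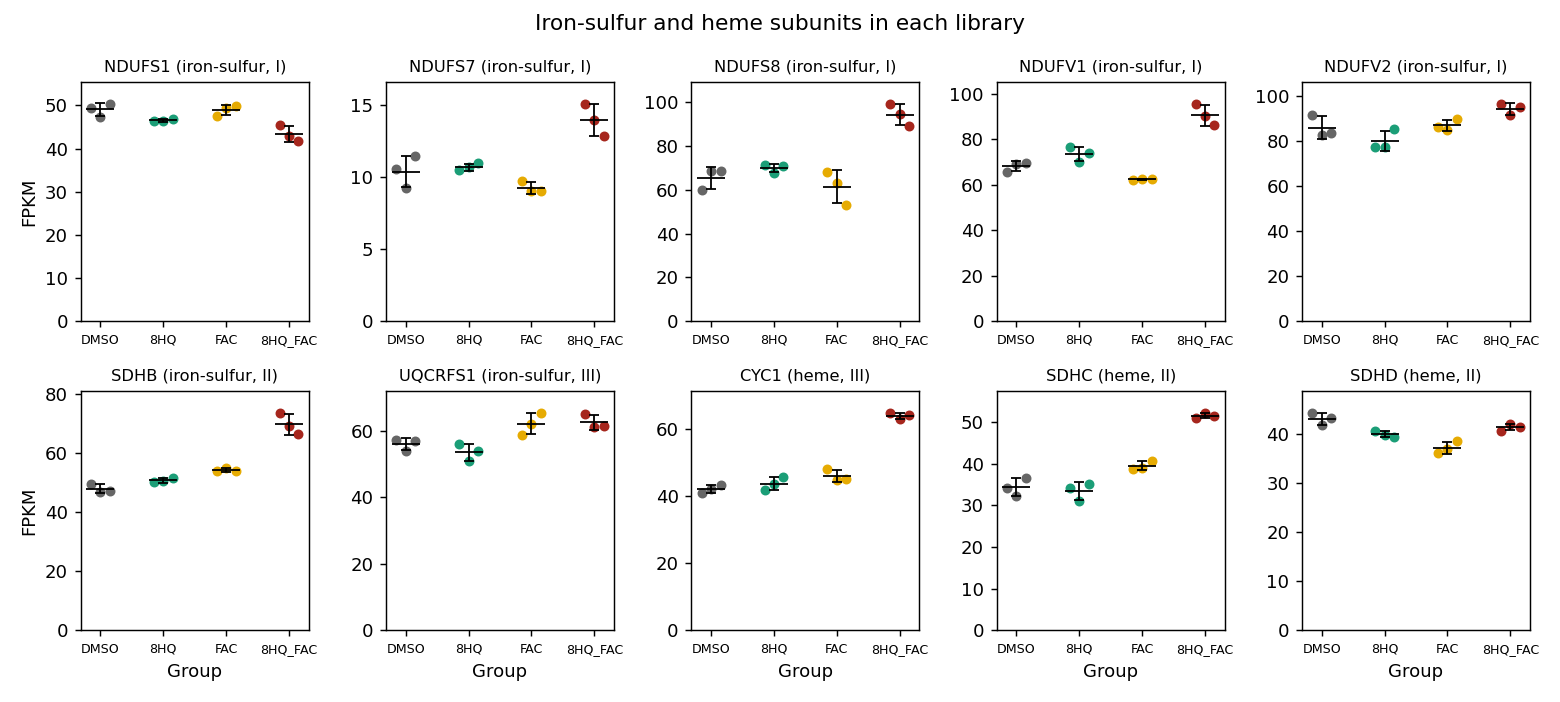
Points are FPKM (vertical axis, from 0) of the 10 iron-sulfur or heme subunits in each library by group, with the mean and 1 SD in black. In 8HQ_FAC the libraries of SDHB lie at 66.5 to 73.6 and those of CYC1 at 63.1 to 64.9, above all others, while those of NDUFS1 at 41.8 to 45.5 lie below all others.

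As a set the 10 iron-sulfur and heme subunits had a median change of 0.40 with 8HQ_FAC and the 71 other members 0.67, a difference of −0.27 (by 8HQ_FAC library −0.20, −0.27 and −0.31). With FAC the medians were 0.01 and 0.12. The iron subunits are longer, with a median coding length of 789 nucleotides against 408. Over the members the change with 8HQ_FAC ran against coding length (Spearman −0.69 over 81 genes) and so did the change with FAC (−0.45); over all tested genes these were −0.45 and −0.14. Genes are not independent replicates, and these correlations are descriptions within the same libraries. When the trend of change over coding length across all genes was subtracted, the difference between iron and other subunits was −0.00 with 8HQ_FAC and −0.04 with FAC; with the trend over transcript length it was 0.03 and −0.05.

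The chain as a whole was also set beside genes of like length and of like level. In the shortest of 4 bins of genes by coding length, 72 to 867 nucleotides, 2611 other genes had a median change of 0.17 with 8HQ_FAC and 51.8% of them were called higher, while the 68 members there had a median of 0.68 and 66 were higher. The next bin held 7 members with a median of 0.35 beside −0.13 for other genes. The medians of the members were above those of other genes in both bins. By DMSO level, 71 members lay in the highest of 4 bins, from 23.1 to 4516 FPKM. There 47.5% of 2635 other genes were called higher with 8HQ_FAC, with a median of 0.04. Of the 71 members 68 were higher, with a median of 0.63. With FAC 32.3% of the other genes and 32 of the 71 members were higher, and in the interaction 46.7% and 68. After the coding length trend was subtracted the members' median was 0.37 (all genes 0.02), with 73 higher and 2 lower, where 41.4% of all genes were higher and 39.5% lower. After the transcript length trend it was 0.26, with 57 higher and 8 lower, where 40.2% of all genes were higher and 38.8% lower. The order of the complexes changed: with the coding length trend removed the medians were 0.43 for complexes I and III, 0.33 for IV and V and 0.29 for II. The annotated transcripts of some members are long for their proteins, such as 13566 nucleotides for SDHC, so values corrected by transcript length rest on that annotation.

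**Figure D4:**
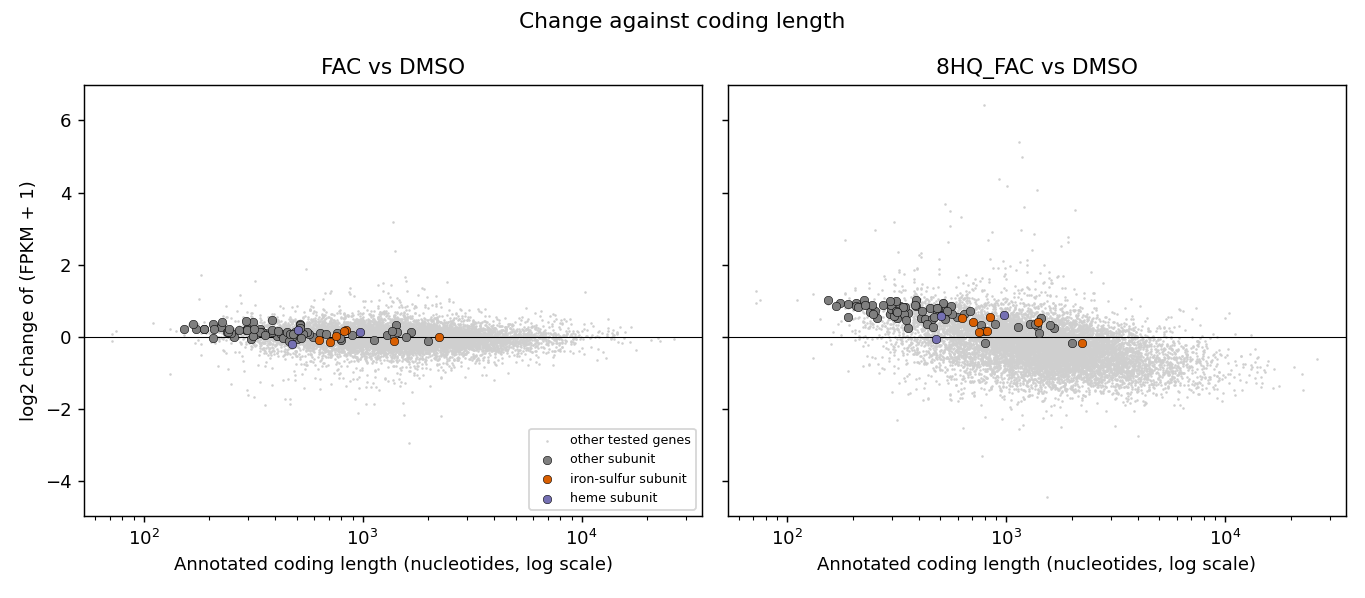
Each point is a tested gene at its annotated coding length (horizontal, log scale) and its log2 change of FPKM plus 1 (vertical), grey dots for other genes and outlined circles for subunits coloured by cofactor. In the 8HQ_FAC panel both the cloud and the subunits slope downward, with a Spearman correlation of −0.45 over all tested genes and −0.69 over the subunits.

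Because the summed FPKM differed between groups, 5 other scalings were set beside the deposited one: quantile normalization, centring of each library on its median, equal sums of FPKM, and removal of the trend of values over transcript length or over coding length, the last chosen after seeing the data. They moved the median of all tested genes with 8HQ_FAC between −0.50 (equal sums) and 0.18 (median centring), and that of the members between 0.26 (transcript length trend removed) and 1.03 (median centring). The members' median was above that of all genes by 0.25 to 0.85 in all 6. Under quantile normalization the members had 0.43, with 69 called higher and 8 lower, where 40.7% of all tested genes were higher and 41.1% lower. Under equal sums they had 0.29, with 60 higher and 9 lower, where 13.7% and 73.6% of all were. Under all 6, 42 of 81 members (51.9%) were called higher, where 11.4% of all tested genes were. They included 17 of 37 in complex I, 2 of 4 in complex II and 5 of 9 in complex III. Complex IV had 10 of 12 and complex V 8 of 19. Of the iron-sulfur and heme subunits 3 of 10 were among the 42. No member was called lower under all 6, where 25.5% of all tested genes were. Among the 42, COX6C ranged from 0.48 to 1.43 and NDUFS6 ranged from 0.60 to 1.34. With FAC, 19 members (23.5%) were higher under all 6, near the 19.5% of all tested genes, and SDHD alone was lower. The falls of NDUFS1 and SDHA with 8HQ_FAC did not keep their direction: median centring gave 0.24 and 0.25. NDUFV2 and UQCRFS1, called higher on the deposited scale, were at −0.19 and −0.16 under equal sums. The median of complex II turned to −0.08 under equal sums.

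**Figure D5:**
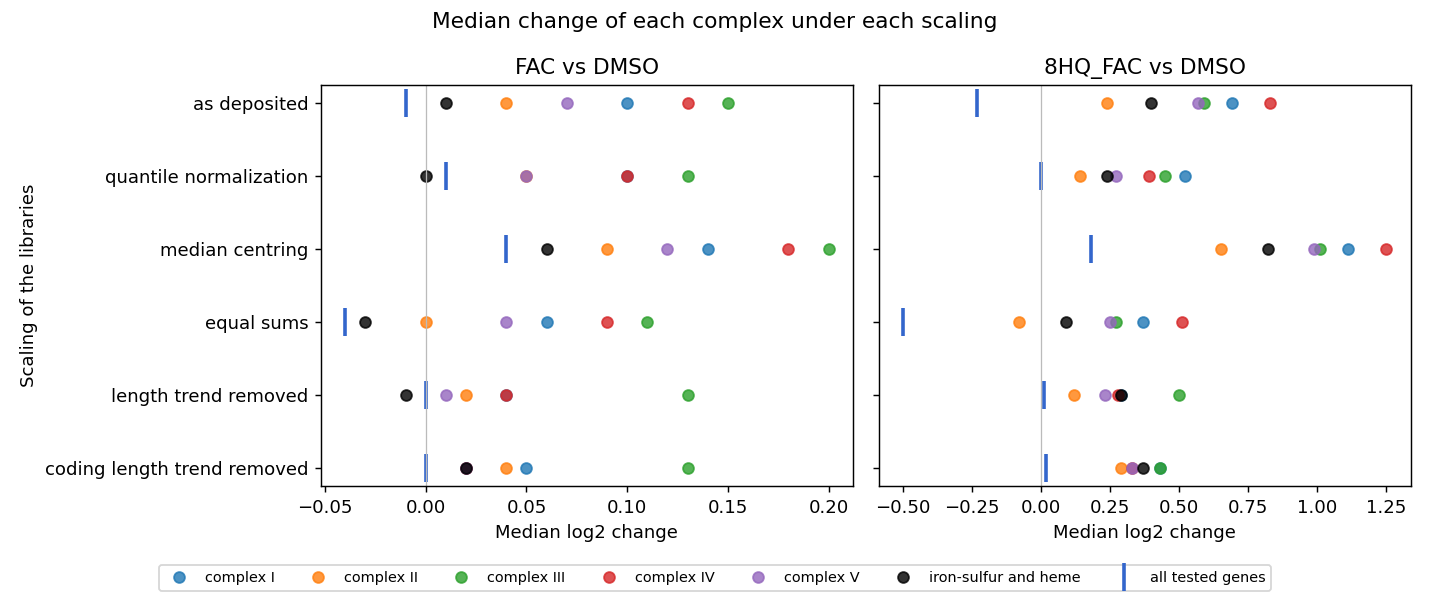
Points are the median log2 change (horizontal axis) of each complex and of the iron-sulfur and heme subunits under 6 scalings (vertical axis), with blue bars for the median of all tested genes, in FAC and in 8HQ_FAC against DMSO. In the right panel each set lies to the right of the blue bar in every row, and complex II crosses 0 under equal sums, at −0.08.

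Against FAC alone, 8HQ_FAC was higher in 76 members by limma and lower in 2, where 26.8% of all tested genes were higher and 56% lower (82.9% either way). Groups did not overlap, with 8HQ_FAC higher, in 75 members and in 27% of all tested genes. The medians were 0.53 and −0.22. COX8A had the largest rise, from 174, 168 and 174 FPKM with FAC to 320, 321 and 313 FPKM with 8HQ_FAC (log2 change 0.89, SE 0.036, limma adjusted p = 5.06e-12). ATP5F1E (0.80), COX6A1 (0.78) and COX6C (0.75) followed. The called falls were NDUFS1 (−0.17) and NDUFV3, an accessory subunit beside NDUFV1, which read 7.47, 7.42 and 8.71 FPKM with FAC and 6.87, 6.21 and 6.43 FPKM with 8HQ_FAC (log2 change −0.24, limma adjusted p = 0.00313). UQCRFS1 (0.01), SDHA (−0.06) and ATP5S (−0.09) were not called. Against 8HQ alone, 8HQ_FAC was higher in 75 members by limma and lower in 3, where 26.8% of all tested genes were higher and 57.6% lower (84.4% either way). Groups did not overlap, with 8HQ_FAC higher, in 76 members and in 26.9% of all tested genes. The largest rises there were ATP5MD (1.08), ATP5F1E (1.07), NDUFB3 (1.07) and NDUFB4 (1.05), and the falls were ATP5S (−0.24), SDHA (−0.13) and NDUFS1 (−0.10). NDUFC2 (0.12), NDUFV3 (0.06) and SDHD (0.05) were not called.

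The interaction asks whether 8HQ changed a gene more with FAC than without it. By limma it was positive for 75 members and negative for 1, where 23.4% of all tested genes were positive and 53.3% negative (76.7% either way), and the members' median was 0.52 (all tested genes −0.24). Complex IV had 0.66 with 12 of 12 positive, complex I 0.52, complex V 0.51, complex III 0.41 and complex II 0.26. ATP5MD had the largest value on the deposited scale (0.87, SE 0.057, limma adjusted p = 2.97e-09). It read 59.6, 60.8 and 55.2 FPKM with FAC and 97.5, 97.4 and 94.6 FPKM with 8HQ_FAC. Its fall with 8HQ alone was a call lost when single DMSO or 8HQ libraries were left out. With the transcript length trend removed its changes with FAC (0.04) and 8HQ_FAC (0.07) against DMSO were not called. Its interaction was then 0.19, and 0.38 with the coding length trend removed, both called. ATP5F1E (0.85), COX8A (0.84) and COX5B (0.81) came next. Under all 6 scalings the interaction was positive for 35 members (43.2%, against 9.22% of all tested genes), among them 9 of 12 in complex IV, 2 of 9 in complex III and 0 of 4 in complex II, and negative for 0. COX5B, a zinc-binding subunit, read 220, 214 and 228 FPKM under DMSO, 203, 203 and 206 FPKM with 8HQ, 247, 244 and 239 FPKM with FAC and 421, 386 and 381 FPKM with 8HQ_FAC. COX8A hardly differed between the first 3 groups, with means of 176, 182 and 172 FPKM, and had 318 FPKM in the fourth. NDUFV3 was the negative one (−0.27, limma adjusted p = 0.0138), and its sign turned under median centring (0.10), quantile normalization (0.13) and with the transcript length trend removed (0.18). NDUFS1, SDHA, UQCRFS1, NDUFC2 and ATP5S had no called interaction.

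Genes that build or control the chain were counted from lists. Over all tested genes, 27.5% were higher and 56.7% lower with 8HQ_FAC, with a median of −0.23, and 24.8% and 29.2% with FAC; the counts below are to be read against these shares. Of 47 tested assembly factors, 23 were higher and 15 lower with 8HQ_FAC against DMSO by limma, with a median of 0.12; with FAC, 24 were higher and 6 lower. Under equal sums the 8HQ_FAC counts turned to 13 higher and 25 lower, where 13.7% and 73.6% of all tested genes were. TIMMDC1, a membrane factor for complex I, went from 21.4, 20.2 and 19.7 FPKM to 39.4, 40.1 and 38.1 FPKM (log2 change 0.91, limma adjusted p = 1.19e-11). SDHAF4, a complex II factor picked out after its values were seen, went from 1.71, 1.05 and 2.21 FPKM to 9.36, 7.13 and 7.63 FPKM, with 7.45, 5.73 and 7.01 FPKM under FAC alone (log2 change with 8HQ_FAC 1.78, limma adjusted p = 6.4e-09). The complex I factors NDUFAF2 and NDUFAF8 rose by 0.84 and 0.68. COA7, which helps to mature complex IV, went from 15.3, 14.4 and 14.3 FPKM to 5.23, 5.66 and 5.75 FPKM (log2 change −1.26, limma adjusted p = 5.41e-12), with 17.4 to 17.8 FPKM under FAC alone. Its direction was the opposite of the 12 complex IV subunits, and it stayed lower when either length trend was removed (−0.85 and −1.31).

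Of 17 tested regulators of mitochondrial gene expression, 16 were lower with 8HQ_FAC and 1 higher (56.7% and 27.5% of all tested genes), with a median of −0.41; the one that rose was SLIRP, an RNA-binding partner of LRPPRC (log2 change 0.86). Under median centring the split was 6 higher and 7 lower, with 53.4% and 31% of all tested genes, so its direction rests on the scaling. PPARGC1A, the coactivator of mitochondrial biogenesis, went from 5.19, 5.06 and 4.97 FPKM to 0.965, 1.12 and 1.15 FPKM (log2 change −1.55, limma adjusted p = 3.6e-12). SP1 went from 15.2, 15.4 and 15.5 FPKM to 5.16, 5.75 and 5.82 FPKM (log2 change −1.32, limma adjusted p = 2.73e-13). PPRC1, a relative of PPARGC1A, and TWNK, the mitochondrial DNA helicase, each fell by 1.13 on the log2 scale. In these 4 genes the 8HQ_FAC libraries lay below all others, while most respiratory subunits lay above.

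Of 14 tested enzymes of the tricarboxylic acid cycle, 8 were higher and 4 lower with 8HQ_FAC (27.5% and 56.7% of all tested genes), with a median of 0.16. Under equal sums 5 were higher and 8 lower (13.7% and 73.6% of all tested genes). The lower ones on the deposited scale were OGDH (−0.44), SUCLA2 (−0.34), DLST (−0.13) and DLD (−0.10). MDH2, malate dehydrogenase, went from 76.3, 74.7 and 75.9 FPKM to 127, 120 and 123 FPKM (log2 change 0.70, limma adjusted p = 4.38e-12). IDH2 rose by 0.63, SUCLG2 by 0.57 and citrate synthase, CS, by 0.40, though quantile normalization put CS at −0.00. Of 14 tested mitochondrial genes linked to oxygen supply, 10 were higher and none was lower with 8HQ_FAC (27.5% and 56.7% of all tested genes). Under equal sums 6 were higher and 4 lower (13.7% and 73.6% of all tested genes). BNIP3, a mitophagy receptor, went from 61.6, 62.1 and 57.8 FPKM to 108, 110 and 112 FPKM with FAC and 156, 149 and 145 FPKM with 8HQ_FAC (log2 change 1.29 for the latter, limma adjusted p = 4.64e-14). Its relative BNIP3L rose by 1.15, CHCHD2, a factor in COX4I2 transcription, by 1.05, and CYCS, cytochrome c itself, by 0.55. NDUFA4L2, the relative of NDUFA4 known from hypoxia and picked out after its values were seen, was low under DMSO, at 0.0444, 0.0929 and 0.356 FPKM. It read 1.28, 1.08 and 1.26 FPKM with FAC and 3.45, 1.88 and 2.32 FPKM with 8HQ_FAC, without overlap (log2 change 1.59 for the latter, limma adjusted p = 1.28e-08).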

How the data were processed

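Total RNA of 12 HepG2 libraries, 3 in each of 4 groups, was sequenced after Illumina library preparation. The values are the FPKM that the authors deposited, 1 column a library. The submitters' processing notes name Bowtie 0.12.2 and the builds mm8 and mm9, which are mouse builds although the table lists human genes. Which program, annotation and build gave the FPKM is not given in the sources used here. FPKM divides by gene length and mapped total, so a uniform change in RNA content per cell cannot be seen in it. A change in the make-up of the RNA, or in the length of fragments recovered, can move the values of many genes.

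From the 20030 listed genes, 27 symbols that a spreadsheet had turned into dates were restored by GeneID. No 2 libraries were identical. With no read totals at hand, intervals for counting error were not made. Steps between low values gave relative depths of 0.773 to 1: of 21391 values below 0.3 FPKM, 80.5% lay within 0.05 of a whole multiple of the step, which was set from each gene's lowest value.

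The 10823 genes that reached 1 FPKM in 3 or more libraries were tested as log2(FPKM + 1), which understates changes of low genes, with limma 3.58.1 in R 4.3.3: 1 mean per group over all 12 libraries, an intensity trend, two-sided tests and Benjamini-Hochberg adjusted p under 0.05 over all tested genes. The procedure was tested on simulated data. Summaries used Python 3.11.15 with pandas 2.3.3 and numpy 2.4.6, and plots matplotlib 3.10.9. Transcript and coding lengths came from GENCODE annotation matched by GeneID (99.7% of tested genes had a transcript length); length trends were fitted by lowess with a span of 0.3. Scalings and other alternatives are given in the closing section.

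Named were all iron-sulfur and heme subunits, up to 4 members that rose and 4 that fell most in each comparison among those called without overlap (for the interaction, among those called), tissue isoforms and ATP5IF1, the highest member of each complex and the one whose group means varied least, members next to the filter, up to 4 genes with the smallest adjusted p of each related list, and the genes behind any count up to 5. Other members in complexes I, III and V, SDHAF4, NDUFA4L2, and the genes given as further examples were added after their values were seen. The members, lists and tests were chosen with earlier results of these data known.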

Additional observations from a re-analysis of the deposited data

Results flagged for a closer look

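The effect of 8HQ differed with and without FAC in 75 subunits that were more positive with FAC and 1 that was less so, by the interaction test in limma with Benjamini-Hochberg adjustment. Among the subunits named here the differences on the log2 scale were 0.87 for ATP5MD, 0.85 for ATP5F1E, 0.84 for COX8A and 0.81 for COX5B. Among the iron-carrying subunits they were 0.52 for NDUFS8, 0.51 for NDUFS7, 0.42 for NDUFV1, 0.41 for CYC1, 0.41 for SDHC, 0.27 for SDHB, 0.26 for SDHD and 0.22 for NDUFV2. For NDUFV3 the difference was −0.27. In the same test 23.4% of all tested genes were higher and 53.3% lower. Under all 6 scalings 35 members (43.2%) were higher and 0 lower, against 9.22% and 21.2% of all tested genes.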

How the results depend on the processing

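Leaving out each library in turn gave these ranges, for which the share of all tested genes called in each refit is not given here. Members called higher were 0 to 0 for 8HQ, 30 to 44 for FAC, 75 to 76 for 8HQ_FAC against DMSO, 74 to 76 against FAC, 75 to 76 against 8HQ and 75 to 75 in the interaction; those called lower were 0 to 2, 2 to 4 (2 without DMSO replicate 3), 2 to 3, 2 to 3, 2 to 3 and 1 to 2 (2 without 8HQ_FAC replicate 1). The difference between iron and other subunits ranged from −0.04 to 0.05 for 8HQ, −0.12 to −0.09 for FAC, −0.30 to −0.23 for 8HQ_FAC against DMSO, −0.20 to −0.17 against FAC, −0.40 to −0.34 against 8HQ and −0.23 to −0.19 in the interaction. The replicate numbers are not said to pair the libraries. Correlations of deviations were −0.08 to 0.05 over 18 same-number pairs and −0.07 to 0.09 over other pairs, which cannot settle how libraries were prepared. A replicate block gave 0 lower for 8HQ and 39 higher and 4 lower for FAC, and kept the counts of the other comparisons. The call of ATP5MD with 8HQ was also lost with no filter, no intensity trend, only the 2 groups compared and without the 3 libraries with most HBB (0 lower each), while equal sums gave 2 and removal of the transcript length trend 3. Without those HBB libraries the difference between iron and other subunits with 8HQ was 0.06, and under quantile normalization −0.00. Members lower with FAC were 7 under quantile normalization, 1 under median centring, 10 under equal sums, 14 with the transcript length trend removed and 7 with the coding length trend removed, which also left 21 higher. In the same order 26.3%, 22.8%, 34%, 27.3% and 27.1% of all tested genes were lower with FAC. Members lower with 8HQ_FAC against DMSO were 8, 0, 9 and 8 in the first 4 of these scalings, where 41.1%, 31%, 73.6% and 38.8% of all tested genes were. Against FAC they were 6, 0, 10, 8 and, for coding length, 1, and against 8HQ 5, 0, 9 and 9. For those comparisons all tested genes were not counted under each scaling. In the interaction they were 5, 0, 6, 4 and 0, where 35.9%, 28.1%, 69.2%, 32.6% and 33.7% of all tested genes were. The difference between iron and other subunits with the transcript and coding length trends removed was −0.05 and −0.04 for FAC, 0.03 and −0.00 for 8HQ_FAC against DMSO, 0.06 and −0.03 against FAC, −0.11 and −0.05 against 8HQ and −0.01 and −0.03 in the interaction; quantile normalization gave −0.08, −0.32 and −0.12 for the last 3, and no filter −0.17 against FAC. Among the genes named by the stated rule, signs turned for these log2 changes. They are given in the order 8HQ_FAC against DMSO, against FAC, against 8HQ and the interaction, where they apply. Under equal sums they were NDUFV2 −0.19, −0.17, −0.08 and −0.06; UQCRFS1 −0.16, −0.28, −0.10 and −0.21; SDHD −0.14, −0.27 and −0.03 (all but the first); NDUFV1 −0.02 against 8HQ; and SDHB −0.02 in the interaction. Under median centring they were NDUFS1 0.24, 0.20, 0.33 and 0.28, SDHA 0.25 and 0.29 (DMSO and 8HQ), ATP5S 0.23 and 0.18 (the same), NDUFV3 0.13 and 0.10 (FAC and interaction) and SDHD 0.36 against DMSO. Under quantile normalization they were NDUFV2 −0.10, −0.09 and −0.00, NDUFV3 0.14 and 0.13, ATP5S 0.05 and 0.03, UQCRC2 −0.06, UQCRFS1 −0.13 and CS −0.00. With the transcript length trend removed they were NDUFS1 0.59, 0.55, 0.68 and 0.64, NDUFV2 −0.27, −0.22, −0.16 and −0.11, ATP5S 0.55 and 0.51, NDUFV3 0.20 and 0.18, ATP5IF1 −0.31, COX6B1 −0.11, NDUFS5 −0.06, NDUFS8 −0.08 and SDHA 0.04 and SDHD −0.08 (these 3 against 8HQ). With the coding length trend removed, an alternative added after seeing the data, they were NDUFS1 0.23, 0.19, 0.33 and 0.29, SDHA 0.20 and 0.27, SDHD −0.03 and −0.19 and NDUFV3 0.00. The scalings differ by construction in the median of all genes; no other cause was tested. Pseudocount 0.1 and a filter at 5 FPKM turned no sign of a named gene. Read totals are unknown, so what depth limits could not be computed.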
